A study of Oryza sativa with 12 samples.

Results

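In rice shoots, 140 of 17905 genes measured on an Affymetrix array had more transcript in both gibberellin-insensitive mutants, gid1-3 and gid2-1, and less in slr1, than in the parental cultivar. They were chosen by these same values. The mean log2 signal had to lie at least 0.58 above that of the parent in gid1-3 and in gid2-1 and at least 0.4 below it in slr1, and at 7.6 or more in gid1-3. Each gene was represented by its brightest probe set among those paired with a single gene. A further 9 genes met the thresholds but were left out by name: AOS2, CYP99A2, CYP99A3, GA20OX3, KSL10, KSL7, LAC24, LOX3 and LOX9. Of the 140 members, 19 have a name in the gene table and 121 have only a LOC number, to which no role is given here.

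The lines were the mutants gid1-3, gid2-1 and slr1 (k1001) and their parental cultivar Taichung 65 (T65). Shoots were taken from greenhouse plants under natural conditions, 5 weeks after germination, with 3 biological replicates per line and 1 array each, 12 arrays in all. Each mutant is a single allele, and loss or gain of function of the slr1 allele is not stated in the labels.

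Gibberellin is bound in rice by the soluble receptor GID1, and the bound receptor takes hold of SLR1, the DELLA protein that represses growth. GID2, an F-box protein, then marks SLR1 for degradation. Rice plants without GID1 or GID2 keep SLR1 and are dwarf, whereas plants that have lost SLR1 are slender and tall.

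Signals are scaled intensities, in arbitrary units, and cannot be compared between genes. Arrays of a line correlated at 0.981 or more (Pearson, log2 signal), and arrays of different lines at 0.953 or less. Only probe sets with a mean at or above the median probe set were used. Across these, no array stood apart from its line. GID1 signal was 6407 ± 165 in gid1-3, 6112 ± 432 in gid2-1 and 2461 ± 5.39 in slr1, against 4494 ± 48.1 in T65 (SD, n = 3 each). SLR1 signal was 827 ± 10.4 in gid1-3, 1135 ± 38.2 in gid2-1 and 1565 ± 82.5 in slr1, against 1295 ± 60.3 in T65. GID2 signal, from an entry that also carries the name GF14E, was 5690 ± 159 in gid1-3, 6433 ± 657 in gid2-1 and 9088 ± 489 in slr1, against 9269 ± 168 in T65. None of these levels tests whether a mutation is present.

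Markers of other tissues and measures of RNA quality also differed between lines. The summed signal of 4 photosynthesis genes ran from 82414 to 90164 in gid1-3, from 51755 to 68604 in gid2-1 and from 70127 to 93344 in slr1, against 70026 to 75148 in T65. Such a sum is weighted to its brightest genes. In gid2-1 PSAG averaged 814 ± 59.0 against 4946 ± 356 in T65, and rca 15532 ± 2069 against 23412 ± 697. CAB2R (log2 change -0.14) and rbcS (0.16) differed little there. For 6 meristem genes the sums were 1194 to 1321 in gid1-3, 3067 to 3419 in gid2-1 and 2624 to 2730 in slr1, against 3295 to 3475 in T65. For 4 vascular genes they were 1587 to 1826 in gid1-3, 5007 to 5626 in gid2-1 and 10306 to 12522 in slr1, against 11523 to 12269 in T65. The meristem and vascular sums were thus lower in gid1-3 than in any other line. For 3 root genes the sums were 670 to 709 in gid1-3, 1758 to 1970 in gid2-1 and 1014 to 1075 in slr1, against 742 to 778 in T65. In gid2-1 Lsi1 averaged 1643 ± 83.0 against 544 ± 15.5 in T65, while SHR1 averaged 158 ± 14.8 against 185 ± 16.6. Lsi2 was below the reporter level in every line. That level is the highest 95th percentile, over the arrays of a line, of the array's control probe sets for reporter genes, taken here as background, and below it the size of a fall is not resolved. OSH43, a meristem homeobox gene, and 1 of the 2 B-type cyclin genes named CYCB1-1 were below that level in both gid mutants, while the other averaged 257 ± 24.2 in gid1-3, 939 ± 67.2 in gid2-1 and 1683 ± 29.4 in slr1, against 1256 ± 26.2 in T65. Meristem genes did not all move with their sum. In slr1 OSH1 (log2 change -1.72), OSH6 (-0.58) and OSH71 (-0.68) were lower than in T65, while the brighter cyclin gene was higher (0.42). OSH43 (-0.07) and the dimmer cyclin gene (-0.20) differed little there. In gid2-1 OSH6 (0.75) and OSH71 (0.58) were higher, OSH43 and both cyclin genes were lower, and OSH1 differed little (-0.14). The actin ratio of 3′ to 5′ probe sets was 5.24 to 5.92 in gid1-3, 4.95 to 6.0 in gid2-1 and 6.46 to 7.37 in slr1, against 6.16 to 7.58 in T65. The same ratio for gapdh was 0.743 to 3.88 in gid1-3, 2.04 to 13.1 in gid2-1 and 4.48 to 8.32 in slr1, against 1.24 to 4.68 in T65. The part of these differences in the results below was not tested, and in such bulk samples fewer cells of a type and less RNA per cell cannot be told apart.

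Among the members with a known role in breakdown and remobilization, malate synthase and red chlorophyll catabolite reductase stood far apart between the lines. MS, the malate synthase of the glyoxylate cycle, had 7718, 7620 and 7547 in gid1-3, 3573, 3574 and 3239 in gid2-1 and 569, 644 and 572 in slr1, against 1268, 1297 and 1283 in T65. This is 5.95-fold the T65 level in gid1-3 and 2.70-fold in gid2-1, while T65 had 2.16-fold the slr1 level, with no overlap between any of the 4 lines. RCCR1, which reduces the red breakdown product of chlorophyll, had 3462, 3020 and 2913 in gid1-3, 2586, 2042 and 2568 in gid2-1 and 627, 663 and 730 in slr1, against 1421, 1713 and 1499 in T65. Its level in slr1 lay further below T65 (log2 change -1.20) than its levels in gid1-3 (1.02) and gid2-1 (0.63) lay above it. AMY1.5, an alpha-amylase, an enzyme that cuts starch, had 447, 406 and 370 in gid1-3, 386, 327 and 393 in gid2-1 and 134, 133 and 97.6 in slr1, against 146, 160 and 210 in T65. The slr1 and T65 arrays of AMY1.5 lay next to each other, and without slr1 replicate 3 its log2 change in slr1 was -0.35.

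Members with roles in defence chemistry were TBT2 and CPS4. CAD8A and ERG1 are given after them, with no such role assigned. TBT2, a tryptamine benzoyltransferase, had 490, 437 and 440 in gid1-3, 165, 170 and 204 in gid2-1 and 45.2, 48.9 and 22.4 in slr1, against 73.0, 106 and 65.7 in T65. The slr1 mean of TBT2, 38.8, lay below the reporter level of that line, 51.6. With each slr1 array below that level raised to it, T65 had at least 1.55-fold the TBT2 signal. CPS4, the syn-copalyl diphosphate synthase that opens the route to the phytoalexin momilactone, had 685, 588 and 629 in gid1-3, 501, 542 and 572 in gid2-1 and 75.0, 58.4 and 115 in slr1, against 97.8, 168 and 118 in T65. In both gid mutants it was over 4-fold the T65 level (5.07-fold in gid1-3 and 4.31-fold in gid2-1), whereas the slr1 and T65 arrays overlapped.

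CAD8A, of the cinnamyl alcohol dehydrogenase family, had 369, 263 and 358 in gid1-3, 562, 430 and 594 in gid2-1 and 53.3, 83.4 and 78.7 in slr1, against 117, 112 and 139 in T65. ERG1, a small protein with a C2 domain that responds to fungal elicitor, had 5671, 5789 and 6109 in gid1-3, 6805, 6648 and 6196 in gid2-1 and 1572, 1735 and 1654 in slr1, against 2542, 2488 and 2584 in T65. For both genes no array of a mutant overlapped T65, and ERG1 was among the brighter members.

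The transporters among the named members were HAK1, YSL13, MST3 and ABCG48, and none of their mutant arrays overlapped T65. HAK1, a high-affinity potassium transporter, had 3997, 3898 and 4180 in gid1-3, 4955, 5394 and 5288 in gid2-1 and 857, 815 and 996 in slr1, against 1786, 1975 and 1817 in T65. By this probe set it was past 2-fold in all 3 mutants, at 2.17-fold of T65 in gid1-3 and 2.80-fold in gid2-1, with T65 at 2.10-fold of slr1. The other HAK1 probe set had log2 changes of 0.99 in gid1-3 and -0.56 in slr1, both short of 2-fold, and 1.72 in gid2-1. YSL13, of the yellow stripe-like family of metal transporters, had 4299, 4152 and 4117 in gid1-3, 5038, 5013 and 5013 in gid2-1 and 1092, 1090 and 1080 in slr1, against 1578, 1636 and 1700 in T65. MST3, a monosaccharide transporter, had 8957, 9557 and 9160 in gid1-3, 9521, 11220 and 8333 in gid2-1 and 3250, 3507 and 3777 in slr1, against 4793, 4941 and 4766 in T65. The spread of YSL13 within lines was small, whereas MST3 varied most in gid2-1. ABCG48, an ABC transporter also named PDR3, had 1646, 1507 and 1575 in gid1-3, 2552, 2624 and 2478 in gid2-1 and 448, 298 and 358 in slr1, against 566, 504 and 631 in T65.

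**Figure D1:**
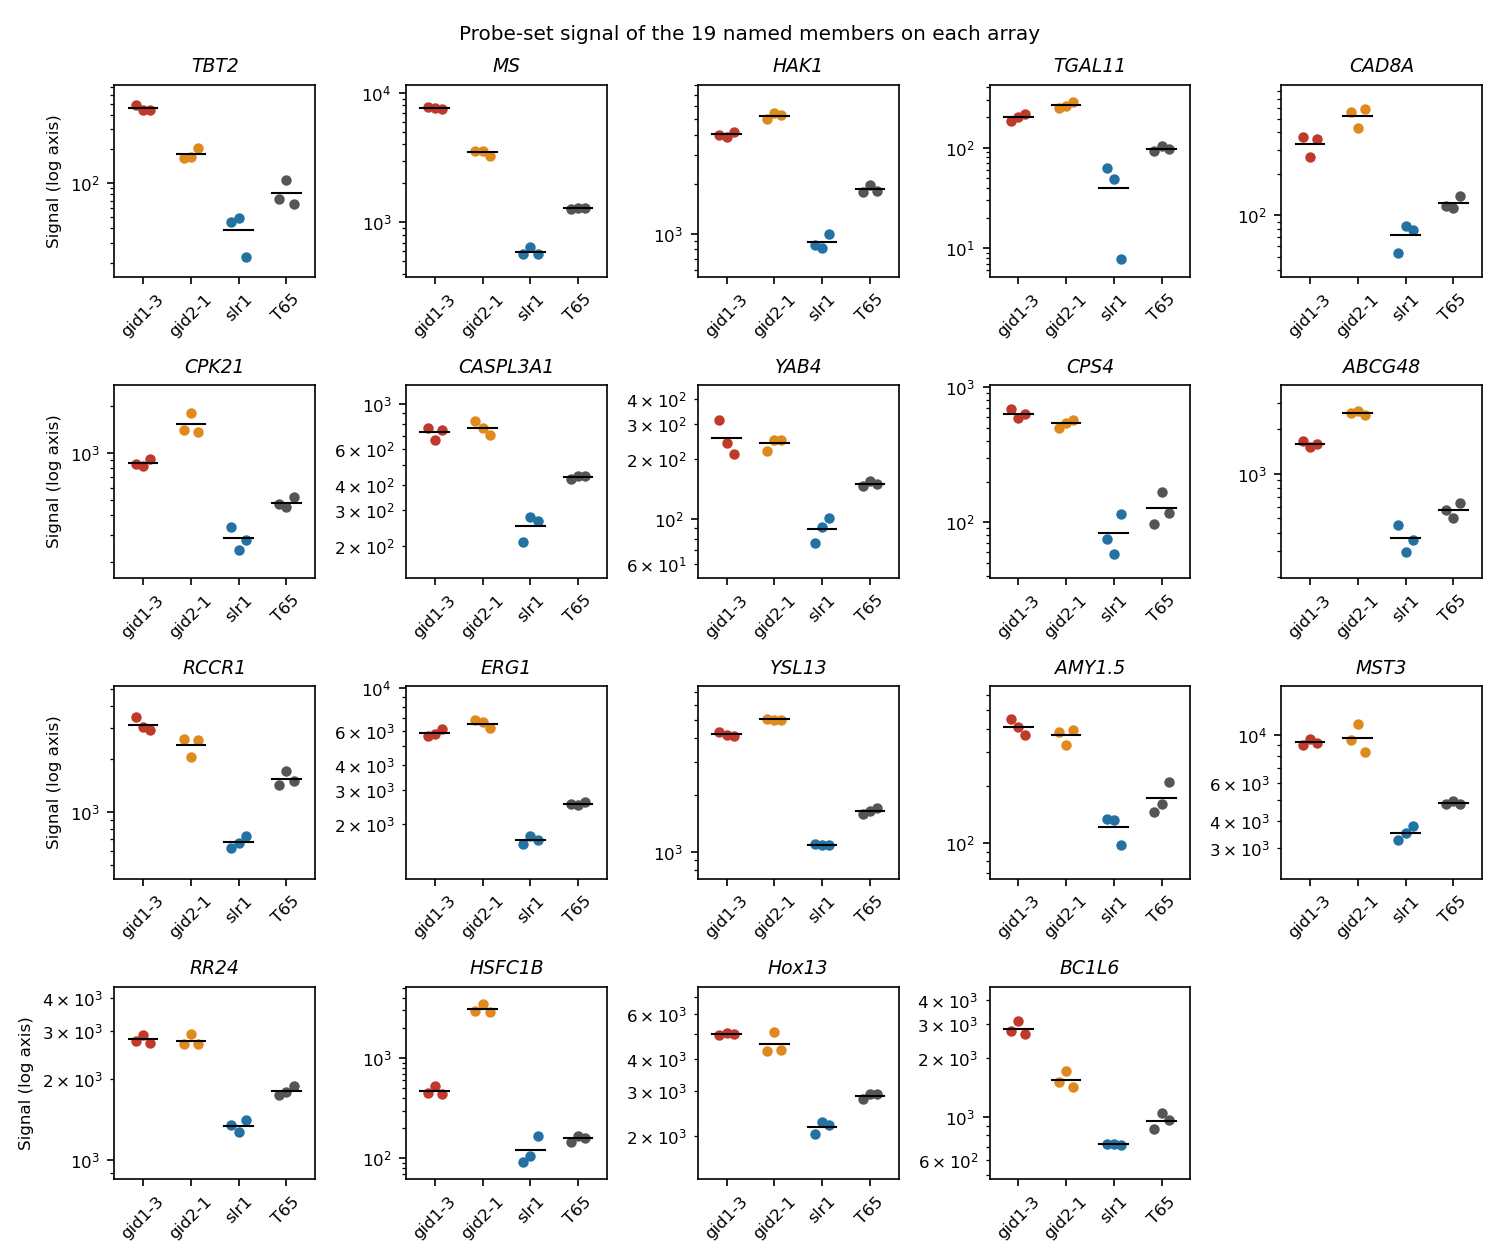
Signal of the 19 named members (log axis, arbitrary units) on each of the 12 arrays, by line from left to right gid1-3, gid2-1, slr1 and T65, with 1 point per array and a bar at the line's mean. The gid mutants lie above T65 and slr1 below it, as the choice of members required, and HSFC1B stands out by its gid2-1 arrays (2980, 3453 and 2901).

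Signalling proteins and transcription factors made up a further 6 of the named members. CPK21, a calcium-dependent protein kinase, had 859, 822 and 923 in gid1-3, 1408, 1815 and 1366 in gid2-1 and 336, 239 and 280 in slr1, against 475, 450 and 522 in T65. TGAL11, a TGA-like factor of the bZIP class, had 186, 203 and 214 in gid1-3, 248, 261 and 283 in gid2-1 and 63.0, 49.0 and 7.74 in slr1, against 92.4, 103 and 98.0 in T65. Its slr1 mean was below the reporter level, which bounds T65 over slr1 at 1.77-fold or more, and slr1 replicate 3 set much of the log2 change, -1.76 with it and -0.81 without it. YAB4, a YABBY factor, had 312, 240 and 212 in gid1-3, 219, 249 and 250 in gid2-1 and 76.4, 91.1 and 101 in slr1, against 146, 155 and 150 in T65.

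HSFC1B, a heat shock factor of class C, averaged 473 ± 51.2 in gid1-3, 3111 ± 298 in gid2-1 and 122 ± 40.4 in slr1, against 158 ± 11.8 in T65 (SD, n = 3 each). At 19.6-fold of T65 in gid2-1 it held the highest gid2-1 change of the members. Its slr1 arrays overlapped those of T65, and its log2 change in slr1 was -0.42, or -0.24 without slr1 replicate 1. RR24, a response regulator of cytokinin signalling, averaged 2803 ± 100 in gid1-3, 2768 ± 134 in gid2-1 and 1342 ± 66.4 in slr1, against 1803 ± 67.3 in T65. Hox13, a homeodomain-leucine zipper factor, averaged 5018 ± 55.9 in gid1-3, 4592 ± 461 in gid2-1 and 2175 ± 122 in slr1, against 2877 ± 68.7 in T65. RR24 and Hox13 differed from T65 by less than 2-fold in every mutant, with no overlap of arrays. Their slr1 changes lay near the threshold. Without slr1 replicate 2 the log2 change of RR24 was -0.39, and without slr1 replicate 1 that of Hox13 was -0.36, both short of it.

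At the membrane and wall, CASPL3A1, a CASP-like membrane protein, had 763, 667 and 749 in gid1-3, 824, 766 and 704 in gid2-1 and 210, 279 and 265 in slr1, against 430, 442 and 442 in T65. Its log2 changes were close in size, 0.73 in gid1-3, 0.80 in gid2-1 and -0.81 in slr1. BC1L6, a COBRA-like protein of the brittle culm family, averaged 2845 ± 239 in gid1-3, 1545 ± 157 in gid2-1 and 720 ± 6.58 in slr1, against 954 ± 93.7 in T65, and lay at the threshold in slr1 (-0.40).

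Members were ranked by the smallest of their 3 measured changes in size, with no bound at the reporter level. The first 4 unnamed members were LOC4342313, LOC4345985, LOC4325834 and LOC4341171. For LOC4345985 and LOC4341171 the bounded slr1 fall did not pass the threshold. LOC4342313 had 1091, 1134 and 1077 in gid1-3, 616, 690 and 627 in gid2-1 and 4.21, 9.55 and 10.2 in slr1, against 141, 107 and 146 in T65. Its slr1 signal was not above the reporter level, so that T65 had at least 2.52-fold the slr1 signal. LOC4345985 had 182, 261 and 231 in gid1-3, 68.2, 99.7 and 91.1 in gid2-1 and 1.39, 4.62 and 4.89 in slr1, against 34.0, 45.9 and 18.9 in T65, where it too was below the reporter level, and no fold is given between them. LOC4325834 had 991, 850 and 907 in gid1-3, 1548, 1374 and 1893 in gid2-1 and 134, 88.3 and 108 in slr1, against 299, 258 and 291 in T65. This gene was measured above the reporter level in every line, without overlap. LOC4341171 had 245, 165 and 228 in gid1-3, 514, 517 and 522 in gid2-1 and 20.6, 7.36 and 69.2 in slr1, against 57.1, 54.0 and 55.7 in T65. Its slr1 arrays overlapped T65 and their mean, 32.4, was below the reporter level, so no fold is given between slr1 and T65.

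Over the 140 members, the log2 change against T65 ran from 0.58 to 3.79 in gid1-3 (median 1.15), from 0.59 to 4.29 in gid2-1 (median 1.17) and from -4.13 to -0.40 in slr1 (median -0.61, or -0.59 with the members below the reporter level at their bound). The largest measured slr1 falls were of members below that level, and among members above it the lowest slr1 change was -1.68. The medians over all 17905 genes were -0.04 in gid1-3, 0.01 in gid2-1 and -0.06 in slr1. LOC4334841, chosen after its values were seen, held the highest gid1-3 change, with a mean of 2693 ± 368 in gid1-3, 667 ± 56.3 in gid2-1 and 140 ± 18.0 in slr1, against 194 ± 19.7 in T65. LOC4324791, also chosen so, was the brightest member, with 15049 ± 683 in gid1-3, 15304 ± 2479 in gid2-1 and 6257 ± 534 in slr1, against 8263 ± 205 in T65. The median member had a mean signal of 1298 in gid1-3, 1300 in gid2-1 and 304 in slr1, against 469 in T65.

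The members lay at least 2-fold above T65 in gid1-3 for 85 genes (7.69% of all genes did), at least 2-fold above it in gid2-1 for 87 (8.46%) and at least 2-fold below it in slr1 for 30 (4.35%). All 3 were met by 19 members, for which no share over all genes is given. The rule chose the members by these same changes, so that their counts exceed the shares of all genes follows from the choice. With members below the reporter level at their bound, the slr1 count was 25 and all 3 were met by 14. On that bounded scale the slr1 change was larger in size than both gid changes for 13 members, among them CASPL3A1, YAB4 and RCCR1, smaller than both for 114 and between them for 13. Since the threshold was lower for slr1 than for the gid mutants, nothing is read from that order. All gid1-3 arrays lay above all T65 arrays for 140 members (32.5% of all genes), and likewise in gid2-1 for 139 (31.3%), with LOC4346816 as the exception. All slr1 arrays lay below all T65 arrays for 128 members (32.7%), and all 3 held for 128 (4.46%). In slr1, 10 members had means below the reporter level, and the bounded fall still passed the threshold for 5 of them.

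**Figure D2:**
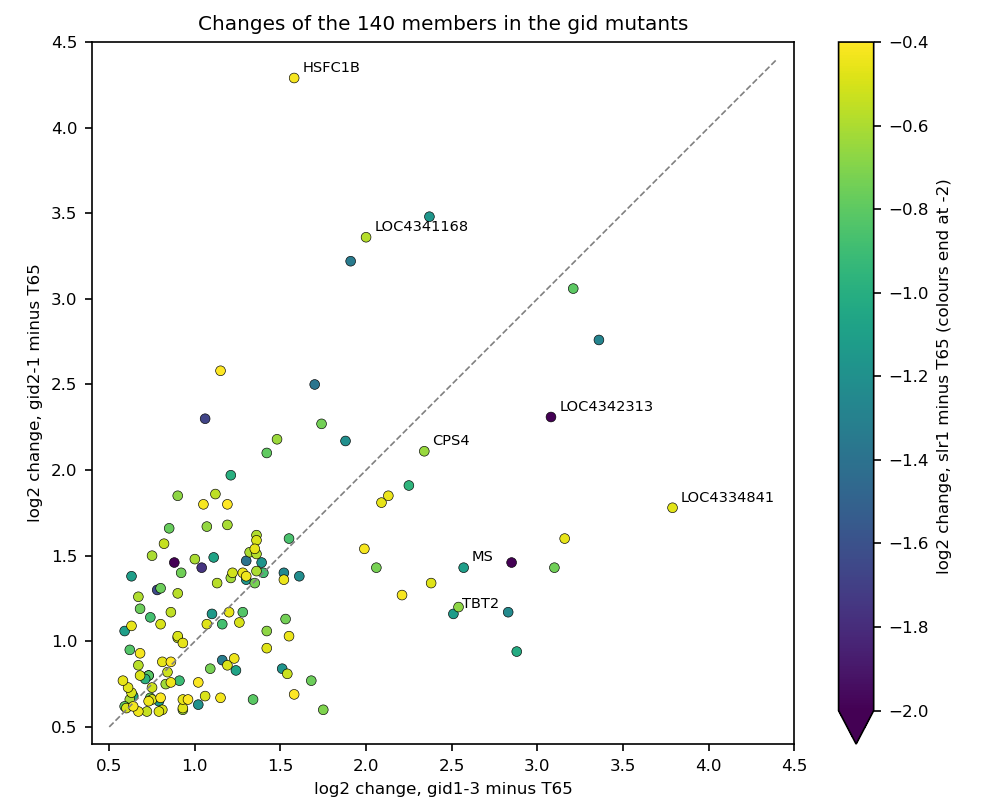
Log2 change against T65 of the 140 members in gid1-3 (x axis) and gid2-1 (y axis), 1 point per gene, coloured by the log2 change in slr1, with a dashed line at equal changes. Members spread to both sides of that line, from HSFC1B (1.58 in gid1-3 and 4.29 in gid2-1) to LOC4334841 (3.79 and 1.78).

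At the thresholds, the 5 members just inside were LOC4349916, LOC4331883, LOC4347910, BC1L6 and LOC4330190, of which LOC4349916 was at 0.58 in gid1-3 and the others at -0.40 in slr1. The 5 genes just outside were LOC4327287, just under 0.58 in gid1-3, LOC4332937 and LOC4336241, both with -0.39 in slr1, LOC4346837, with 0.56 in gid1-3, and LOC4331644, with -0.38 in slr1.

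The comparison of gid1-3 with gid2-1 was the one contrast between lines that the rule did not use, although its floor on the gid1-3 level favours genes that are high there. Between these mutants 34 members were higher in gid1-3 (24.3%), 35 were lower (25.0%) and 71 were not called (limma, adjusted p under 0.05 over all 57194 probe sets). With no trend in the prior variance 22 were higher, and with arrays centred on their medians 18 were lower. Over all probe sets 9.06% were higher and 12.0% lower, and with 1 probe set per gene 17.5% and 23.4%. Among genes that met the same floor in gid1-3, 23.0% were higher and 23.9% lower, so the members' shares were close to those of genes of like signal. The median difference of the members was -0.03 on the log2 scale, with a range from -2.72 to 2.01.

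MS, TBT2, BC1L6 and RCCR1 were higher in gid1-3 than in gid2-1. The log2 difference was 1.14 ± 0.06 (SE) for MS (limma adjusted p = 3.1e-09), 1.35 ± 0.27 for TBT2 (0.0019), 0.88 ± 0.09 for BC1L6 (2.2e-06) and 0.39 ± 0.10 for RCCR1 (0.012). The RCCR1 call was lost under 4 of 22 other settings, a 2-fold threshold not counted, among them without gid1-3 replicate 1 (adjusted p = 0.066 in limma) and without gid2-1 replicate 2 (0.057).

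HSFC1B, CPK21, ABCG48, CAD8A and HAK1 were the named members with the largest differences in the other direction, lower in gid1-3 than in gid2-1. The log2 difference was -2.72 ± 0.17 for HSFC1B (limma adjusted p = 1.6e-08), -0.81 ± 0.13 for CPK21 (0.0002), -0.70 ± 0.12 for ABCG48 (0.00043), -0.68 ± 0.20 for CAD8A (0.022) and -0.37 ± 0.07 for HAK1 (0.0016). CAD8A lost its call under 5 of 22 settings, again without counting a 2-fold threshold, among them without gid1-3 replicate 2 (0.11) or gid2-1 replicate 1 (0.081) or 3 (0.096). HAK1 lost it under 1 of 21, with arrays centred on their medians. YSL13 was also lower (-0.26 ± 0.05, limma adjusted p = 0.0012), a call lost under 1 of 22 settings. Of the called named members, HSFC1B, TBT2 and MS differed by 2-fold or more. The smallest differences were those of RR24 (0.02 ± 0.06), MST3 (-0.06 ± 0.09), CASPL3A1 (-0.07 ± 0.11), YAB4 (0.07 ± 0.17) and Hox13 (0.13 ± 0.07), none of them called, which does not show that the levels are equal. Hox13 was called without gid2-1 replicate 2 (0.21, limma adjusted p = 0.017).

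**Figure D3:**
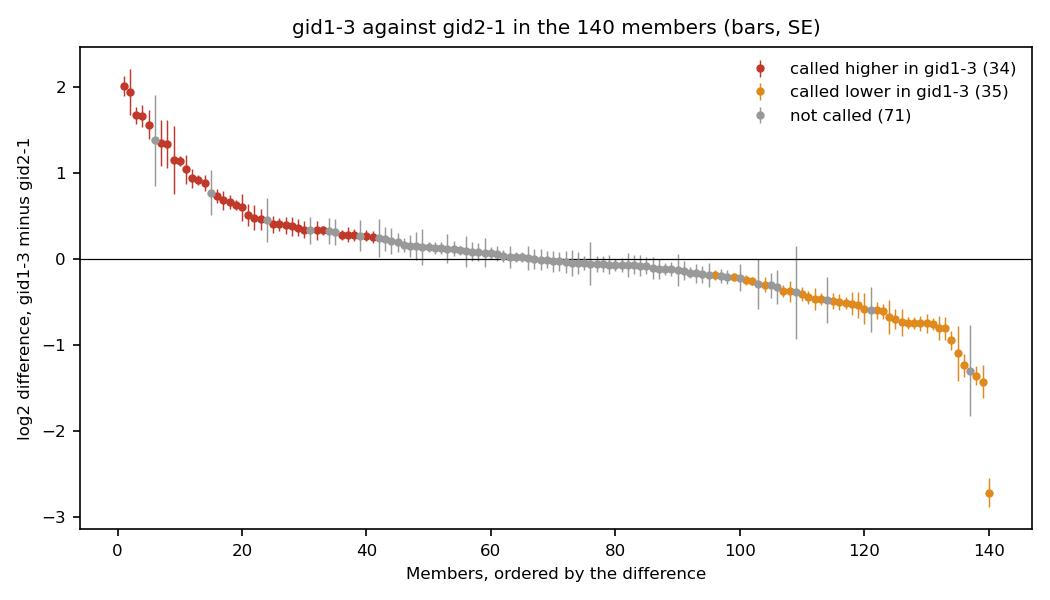
Log2 difference of gid1-3 minus gid2-1 (y axis) for the 140 members in order of that difference (x axis), with bars of 1 SE, coloured by the limma call. The 34 members called higher and the 35 called lower sit at the ends, and HSFC1B lies lowest at -2.72.

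Some member genes had further probe sets, which measure the same RNA of the same plants. There were 29 of these, for 21 genes, and 17 had all 3 signs of the rule (13.4% of 4531 such probe sets over all genes had them). Of the 14 that were above the reporter level in every line, 12 had all 3 signs. Among these 12 the slr1 change was only -0.04 for LOC107278342 and -0.05 for LOC4349058, and several are of the kind that can bind related transcripts. Of the 29, 11 met the 3 change thresholds. No share over all genes is given for that count or for the 12 of 14, and the 13.4% includes dim probe sets. The genes were chosen for these signs in the same RNA, so the counts are no independent support. HAK1, whose probe set above can bind related transcripts, had log2 changes of 0.99 in gid1-3, 1.72 in gid2-1 and -0.56 in slr1 with its other probe set. For 7 of the 21 genes no other probe set had the 3 signs.

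**Figure D4:**
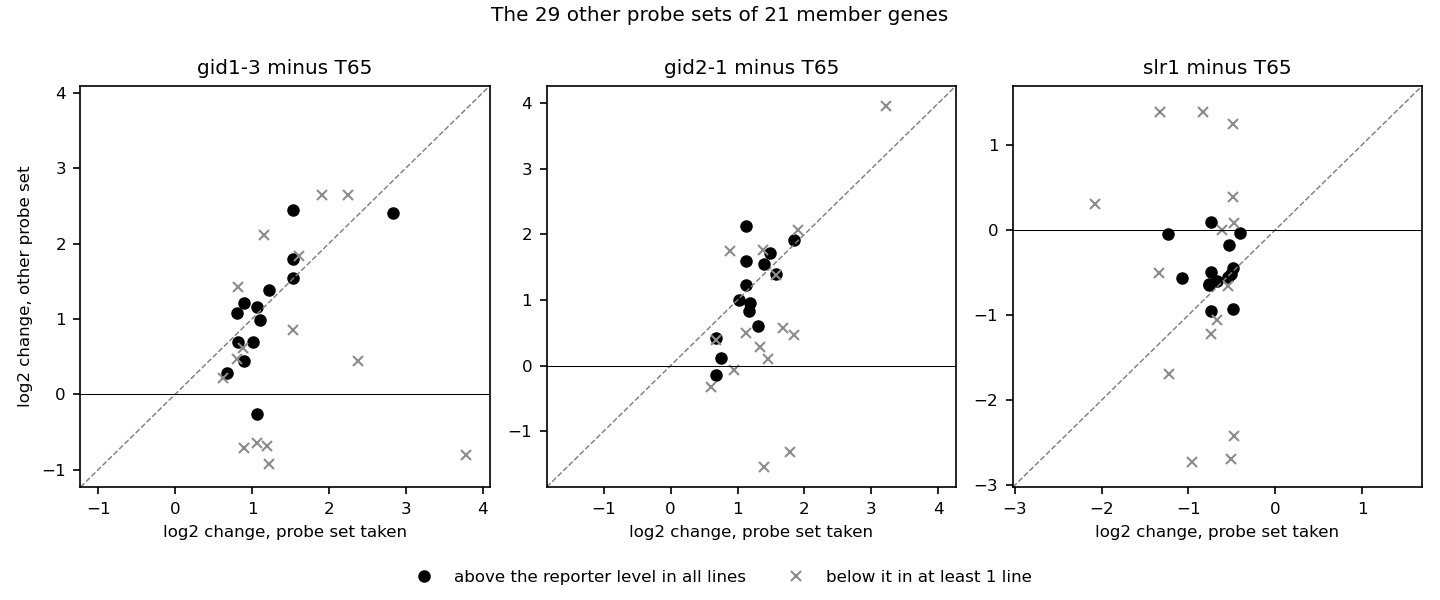
Log2 change against T65 of each of 29 other probe sets (y axis) beside that of the probe set taken for the gene (x axis), in gid1-3, gid2-1 and slr1, with dots for the 14 above the reporter level in every line and crosses for the rest. Of the 14 dots, 12 have all 3 signs of the rule.

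In the order of genes along the RefSeq chromosomes, 14 of 140 members (10.0%) had another member within 5 genes, against 3.79% of the other genes, a description with no test. Adjacent pairs were LOC4342313 and LOC4342314 on chromosome 7, and LOC4344485 and LOC4344486 on chromosome 8. LOC4341168, with log2 changes of 2.00 in gid1-3, 3.36 in gid2-1 and -0.58 in slr1, lay 4 genes from LOC4341171 on chromosome 6, which had 1.91 in gid1-3 and 3.22 in gid2-1 and was below the reporter level in slr1. The probe sets of LOC4341171 and LOC4342314 are of the kind that can bind related transcripts, so that neighbours of like sequence could share signal, which was not tested. CPS4 lay next to CYP99A3 on chromosome 4, a P450 of the same momilactone cluster that was left out by name, with 1.29 in gid1-3, 1.08 in gid2-1 and -0.85 in slr1.

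Other genes of the members' pathways were counted in 12 lists, members and genes left out by name excluded. The lists were chosen with earlier results of these data known, so their counts and p-values are no independent support. Of the 5 other measured genes of chlorophyll breakdown and senescence, gid1-3 had 3 higher and 0 lower, gid2-1 had 2 higher and 0 lower, and slr1 had 0 higher and 4 lower, all against T65 (limma, adjusted p under 0.05). The shares over all probe sets were 14.1% higher and 15.4% lower for gid1-3, 13.7% higher and 12.4% lower for gid2-1, and 9.10% higher and 10.8% lower for slr1. Those shares include dim probe sets, whereas in every list a gene is measured by its brightest, so they are not like for like. In gid1-3 against gid2-1, 9.06% of all probe sets were higher and 12.0% lower, but 17.5% and 23.4% with 1 probe set per gene. Shares with 1 probe set per gene are not given for the contrasts with T65. ICL, the isocitrate lyase that acts beside malate synthase in the glyoxylate cycle, had 10521 ± 451 in gid1-3, 2987 ± 163 in gid2-1 and 148 ± 25.9 in slr1, against 3604 ± 142 in T65. Its log2 change was 1.55 ± 0.10 in gid1-3 (limma adjusted p = 7.9e-09) and -4.62 ± 0.10 in slr1 (5.5e-13), and -0.27 ± 0.10 in gid2-1 was not called (0.057). NYC1, a chlorophyll b reductase, rose in gid1-3 (0.42 ± 0.08) and gid2-1 (0.54 ± 0.08) and fell in slr1 (-1.29 ± 0.08), while SGR, the stay-green protein that takes magnesium from chlorophyll, fell in slr1 (-1.66 ± 0.09) and was not called at 0.06 ± 0.09 in gid1-3 and -0.22 ± 0.09 in gid2-1. NOL rose in gid1-3 (0.77 ± 0.06), was not called in gid2-1 (0.08 ± 0.06) and fell in slr1 (-0.84 ± 0.06). The 2 genes called higher in gid2-1 were thus NYC1 and SAG12. SAG12 averaged 95.6 ± 37.7 in gid2-1 against 29.3 ± 23.1 in T65 (limma adjusted p = 0.027). It was below the reporter level in every line but gid2-1, so its rise is not resolved in size. With arrays centred on the spiked controls, gid1-3 had 2 of the 5 genes higher, gid2-1 had 2 higher and 2 lower, and slr1 had 4 lower.

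The other lists with a member, or with a gene left out by name, moved in both directions. Of 12 gibberellin genes, gid1-3 had 5 higher and 5 lower, gid2-1 had 4 higher and 4 lower, and slr1 had 4 higher and 1 lower, the last being GID1. With either centring slr1 had 2 higher. Among 50 calcium sensor kinases and their partners, relatives of CPK21, gid1-3 had 15 higher and 20 lower, gid2-1 had 18 higher and 18 lower, and slr1 had 13 higher and 17 lower. With spiked-control centring the kinases were 8 higher and 22 lower in gid1-3 and 11 and 21 in gid2-1, and with median centring the gid2-1 kinases were 12 and 17. For 31 sugar and trehalose genes, the list of MST3, the counts of higher and lower genes were 6 and 13 in gid1-3, 6 and 12 in gid2-1 and 8 and 8 in slr1, and with spiked-control centring 3 and 16 in gid1-3, 3 and 13 in gid2-1 and 5 and 8 in slr1. For 26 cytochrome P450 genes they were 6 and 9 in gid1-3, 11 and 6 in gid2-1 and 3 and 10 in slr1. The remaining 7 lists (abscisic acid, ethylene, nitrogen, evening clock, NAC factors, glutathione transferases and secondary wall) held no gene that met the rule. Some of them also moved 1 way in a gid mutant. Glutathione transferases had 0 of 6 genes higher and 4 lower in gid1-3 and in gid2-1. Secondary wall had 0 of 5 higher and 5 lower in each, and evening clock had 0 of 6 higher and 4 lower in gid1-3. The abscisic acid, ethylene, nitrogen and NAC lists had calls both ways in every line.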

How the data were processed

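Per the labels, shoots of 4 lines were profiled with 3 biological replicates each. The deposited table gives a linear intensity for each probe set. The software is not given in the sources used here, and the mean after trimming 2% at each end was about 500 on every array. Of 57381 probe sets, 187 controls were left out. Values below 1 were raised to 1 before the log2. All 12 arrays were fitted with 1 mean per line in limma 3.58.1 (R 4.3.3, eBayes with a trend), with Benjamini-Hochberg adjustment over 57194 probe sets. The fit was also run on simulated data with independent errors and changes placed only in probe sets at or above the median signal. The outcome is not given here, and that run does not bear on dim probe sets. With 3 arrays a line, their number limits the precision.

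The array's table paired 22436 probe sets with 1 gene. Members and lists were chosen with earlier results of these data known. The 3 contrasts with T65 chose the members and carry no test for them. Named members were the 19 with a gene name. The first 15 of them, ranked by the smallest of their 3 measured changes in size, were given with every array. For gid1-3 against gid2-1, at most 5 of the largest called differences each way and the 5 smallest were given. The first 4 unnamed members in the same ranking were added. Names that begin with GLU and a number, which are endoglucanases, were dropped from the nitrogen list by name.

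Alternatives were other normalizations, a pseudocount of 16, the mean of a gene's probe sets, dropping probe sets that can bind related transcripts, no trend, a 2-fold threshold, a replicate block and each array left out. No sequences were used here, so promoter motifs were not analysed.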

Additional observations from a re-analysis of the deposited data

How the results depend on the processing

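The thresholds were met by 136 genes after quantile normalization (130 of them members), 135 with arrays centred on their medians (129), 126 with log2(signal + 16) (125), 131 with the mean of a gene's probe sets (127), 137 without probe sets that can cross-hybridize (137) and 100 with arrays centred on the spiked controls (90), a setting chosen after seeing the data that moved the median log2 change by -0.22 in gid1-3, -0.20 in gid2-1 and -0.09 in slr1. With each array left out in turn, 125 to 140 genes met them. Under all 18 settings 61 members stayed, 10 of them named: TBT2, MS, HAK1, CAD8A, CPK21, CPS4, ABCG48, ERG1, YSL13 and MST3. For gid1-3 against gid2-1, members called higher numbered 22 with no trend and 10 at 2-fold, and those called lower 18 with median centring and 5 at 2-fold, where RCCR1, CAD8A, HAK1, YSL13, CPK21, ABCG48 and BC1L6 lost their calls. With each array left out they were 27 to 35 higher and 28 to 37 lower. Over all probe sets, 5182 were higher and 6864 lower, against 4943 and 3975 with median centring. Replicate numbers were not taken as pairs: same-numbered arrays of different lines correlated from -0.28 to 0.21 after line means were subtracted, with 4 of 18 over 0.1. With the replicate block, 33 members were higher and 34 lower, and listed genes numbered 44 higher and 80 lower in gid1-3, 64 and 65 in gid2-1 and 43 and 62 in slr1. Of the 197 listed genes, gid1-3 had 48 higher and 80 lower, gid2-1 64 and 65, and slr1 44 and 62. With spiked controls 29 rose in gid1-3 and 29 in slr1, and with median centring 28 rose in slr1. At 2-fold, gid1-3 had 12 higher and 37 lower, gid2-1 20 and 31, and slr1 7 and 24. With each array left out, gid1-3 had 42 to 49 higher and 76 to 82 lower, gid2-1 57 to 67 and 57 to 66, and slr1 38 to 47 and 56 to 62. Other probe sets with all 3 signs numbered 9 of 19 without those that can cross-hybridize, which leaves fewer probe sets, and 16 to 18 with each array left out. Apart from that, the cause of these shifts was not tested. Signal near the reporter level limits the 10 members below it in slr1. The promoter motif shares were not run.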
